A study of Homo sapiens with 6 samples.

Results

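The peptidylarginine deiminase cluster holds the genes PADI1, PADI2, PADI3, PADI4 and PADI6, which lie side by side on the short arm of human chromosome 1. Its 5 genes were taken by symbol from a table of 60612 gene identifiers, and the cluster was chosen by the measured PADI3 levels, which lay more than 2-fold lower after TEAD3 knockdown. The libraries came from U251, an established human glioma cell line. There were 3 libraries of cells with TEAD3 knockdown by transient transfection and 3 libraries of normal control cells. For the knockdown the labels mention a plasmid vector as well as an siRNA, and they leave unsaid what the controls received. Nor do they state that replicates were grown separately, so the p-values rest on library-to-library spread that could be technical.

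Peptidylarginine deiminases convert arginine residues of proteins to citrulline, which removes a positive charge. The enzymes need calcium and use a cysteine in the active site. PADI1 and PADI3 are known from epidermis and hair follicle, where filaggrin, keratins, trichohyalin and S100A3 are substrates, and variants of PADI3 are known in uncombable hair. PADI2 is the most widely expressed member and citrullinates myelin basic protein, vimentin and GFAP in brain. PADI4 is known for histone citrullination in neutrophils, and PADI6, found in oocytes, belongs to the subcortical maternal complex and has little or no known enzyme activity. TEAD3 is a TEAD family transcription factor that binds DNA and takes YAP1 and TAZ, the effectors of Hippo signalling, as its partners.

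PADI1, PADI2 and PADI4 are shown around the codon of the catalytic cysteine, to make clear how alike and how different the paralogs are. The stretches are 5′ to 3′ from the coding sequences of GENCODE release 29, with that codon in capitals, and it is codon 645 of PADI1, 647 of PADI2 and 645 of PADI4.
PADI1: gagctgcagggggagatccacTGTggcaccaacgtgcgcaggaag
PADI2: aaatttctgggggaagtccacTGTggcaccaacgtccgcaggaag
PADI4: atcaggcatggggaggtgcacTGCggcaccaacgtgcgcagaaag
Over the whole coding sequence PADI3 was 70.3% identical to PADI1, 67.7% to PADI2, 70.9% to PADI4 and 63.5% to PADI6. No exon of the 5 genes overlapped an exon of another annotated gene on either strand.

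The table of RefSeq upstream sequences used here matched 4 of the 5 members, and their sequence is shown because PADI1 and PADI2 were expressed in these cells while PADI4 and PADI6 had no counts. Each line is the 250 bases before the annotated start on the gene's own strand, 5′ to 3′, on GRCh38.p14. The windows are chr1:17204878-17205127 (plus strand) for PADI1, chr1:17119452-17119701 (minus strand) for PADI2, chr1:17307947-17308196 (plus strand) for PADI4 and chr1:17371946-17372195 (plus strand) for PADI6. Capitals mark matches on either strand to 5 motifs. The motif searched for TEAD factors was GGAATG. For the factor NF-Y it was CCAAT, and for Sp1, which binds GC boxes, it was GGGCGG. For AP-1, made of Fos and Jun proteins, it was TGANTCA, and the TATA box was searched as TATAAA.
PADI1: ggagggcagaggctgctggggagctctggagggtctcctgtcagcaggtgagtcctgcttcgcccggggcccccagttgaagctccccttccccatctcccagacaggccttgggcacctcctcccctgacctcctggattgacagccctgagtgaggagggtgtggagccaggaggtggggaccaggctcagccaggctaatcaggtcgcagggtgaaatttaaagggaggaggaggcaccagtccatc
PADI2: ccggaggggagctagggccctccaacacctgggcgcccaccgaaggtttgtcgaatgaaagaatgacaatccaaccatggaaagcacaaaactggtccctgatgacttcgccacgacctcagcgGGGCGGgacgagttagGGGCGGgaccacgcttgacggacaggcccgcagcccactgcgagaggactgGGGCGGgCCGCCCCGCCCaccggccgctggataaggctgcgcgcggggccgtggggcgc
PADI4: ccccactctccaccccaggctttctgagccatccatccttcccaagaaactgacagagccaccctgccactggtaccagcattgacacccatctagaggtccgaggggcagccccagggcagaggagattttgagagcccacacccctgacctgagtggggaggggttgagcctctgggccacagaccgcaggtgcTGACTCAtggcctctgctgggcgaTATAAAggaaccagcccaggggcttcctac
PADI6: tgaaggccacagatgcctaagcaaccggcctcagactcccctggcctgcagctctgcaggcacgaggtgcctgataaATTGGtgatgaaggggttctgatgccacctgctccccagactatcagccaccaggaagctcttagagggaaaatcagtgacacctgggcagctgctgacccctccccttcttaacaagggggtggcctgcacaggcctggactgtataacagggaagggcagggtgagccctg
The PADI2 window held 5 Sp1 matches, the last 2 of which share a base, while 42.6% of 35116 RefSeq promoter windows of the same length held at least 1. The PADI4 window held 1 AP-1 match, found in 6.57% of all windows, and 1 TATA match, found in 10.7%. The PADI6 window held 1 NF-Y match, found in 32% of all windows. The PADI1 window held none of the 5 motifs. GGAATG was in none of the 4 windows and in 11.9% of all windows, which says nothing about TEAD3 binding elsewhere in the locus. The PADI2 window held 24 CpG dinucleotides, more than 76.3% of all windows, against 3, 3 and 2 in the windows of PADI1, PADI4 and PADI6.

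The libraries held between 63145768 and 64808615 counts in the knockdown and between 58344026 and 63685272 in the controls. TEAD3, the gene that was knocked down, was at 4.70, 8.35 and 6.08 CPM in knockdown replicates 1 to 3, against 14.9, 20.3 and 21.01 CPM in control replicates 1 to 3. CPM here means counts per 1000000 counts of a library size adjusted by TMM. The log2 fold change, knockdown over control, was -1.55 (SE 0.218; edgeR quasi-likelihood test, Benjamini-Hochberg adjusted p = 0.0114). The call ended when knockdown replicate 1, knockdown replicate 3 or control replicate 3 was left out (edgeR adjusted p of 0.0532, 0.0938 and 0.0541). The glioma label was checked against 11 astrocytic and glioma markers. VIM, CD44, NES and SOX2 were abundant, while GFAP, the defining astrocyte marker, averaged 0.572 ± 0.212 CPM in the knockdown and 1.46 ± 0.298 CPM in controls (SD, n = 3 each), AQP4 was near 0 and OLIG2 had no counts. The summed level of these 11 markers, mostly VIM, was between 4434 and 4998 CPM in the knockdown and between 5366 and 5937 CPM in controls. VIM alone averaged 3679 CPM in the knockdown and 4484 CPM in controls, and NES 186 and 185 CPM. Of the 9 markers tested, 7 had a log2 fold change below 0 and 2 above 0, and edgeR called 0. The part of this difference in the results below was not tested. Markers of the other cells known for these enzymes were mixed. DSG3 (keratinocyte), MPO (neutrophil), MOG (oligodendrocyte) and BMP15 (oocyte) had no counts. Among keratinocyte markers TP63 averaged 1.05 CPM in both groups, SFN 8.07 CPM in the knockdown and 7.58 CPM in controls, and KRT10 13.4 and 7.79 CPM. The neutrophil marker S100A9 averaged 1.07 and 0.923 CPM. The summed level of 9 keratinocyte markers, mostly KRT10 and SFN, was between 18.7 and 26.6 CPM in the knockdown and between 13.9 and 21.8 CPM in controls, with 1 of the 9 at 0. For 9 neutrophil markers, 4 of them at 0, the sum was between 1.36 and 1.80 CPM in the knockdown and between 0.716 and 1.84 CPM in controls. For 6 oligodendrocyte markers, 2 of them at 0 and CNP making nearly all of the sum, it was between 348 and 368 CPM in the knockdown and between 377 and 470 CPM in controls. For 7 oocyte markers, 3 of them at 0 and ZP3 and GDF9 making most of the sum, it was between 0.704 and 0.921 CPM in the knockdown and between 0.259 and 0.494 CPM in controls. Exons of ZP3 and GDF9 overlap genes on the opposite strand. The part of these marker sums in the results was not tested either.

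PADI3 was the dominant member of the cluster in U251 cells and was lower in every knockdown library than in every control. PADI3 (ENSG00000142619) occupies bases 17249098 to 17284233 of chromosome 1 in GRCh38, plus strand, by GENCODE release 29. Its level was 45.4, 51.6 and 42.5 CPM in knockdown replicates 1 to 3, against 104, 143 and 78.1 CPM in control replicates 1 to 3. The raw counts behind these levels were 2829, 3307 and 2775 in the knockdown and 6835, 8088 and 4691 in the controls. The groups did not overlap, and control replicate 2 stood highest among the controls.

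The means of PADI3 were 46.5 ± 4.68 CPM in the knockdown and 108 ± 32.4 CPM in controls (SD, n = 3 each), which is -1.22 on the log2 scale with SE 0.185, or 43% of the control level (95% interval 32.4% to 56.9%). These values chose the cluster and are given as a description, so nothing is read from the call below. In bulk libraries a smaller share of cells with the transcript and less transcript per cell cannot be told apart. Of the 3 members that passed the filter on low counts, 1, PADI3, was called by edgeR at an adjusted p under 0.05. Across all 17723 genes tested 116 were called (0.655%), and the groups did not overlap for 21.6% of the genes tested, with all knockdown libraries below all controls for 10.6%. DESeq2 called 2.69% of its genes lower and 3.42% higher. The PADI3 call ended without knockdown replicate 1 or 3, without the filter on low counts, and with a covariate for RNAs without a poly(A) tail, at edgeR adjusted p of 0.112, 0.139, 0.0875 and 0.0568. Next to PADI3, the member nearest to a 2-fold decrease was PADI2, at 69% of the control level.

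PADI1 did not pass the test. PADI1 (ENSG00000142623, 17205126 to 17246005 on the plus strand) encodes an epidermal deiminase and ends a short distance before the start of PADI3. Its level was 3.37, 3.22 and 4.59 CPM in knockdown replicates 1 to 3, against 4.54, 5.83 and 2.90 CPM in control replicates 1 to 3. The groups overlapped, and the lowest of the 6 libraries was a control. The means were 3.73 ± 0.754 CPM in the knockdown and 4.42 ± 1.47 CPM in controls (SD, n = 3 each; log2 fold change -0.25, 95% interval -0.85 to 0.35, edgeR adjusted p = 0.727). Without control replicate 2 the log2 fold change was -0.00013 (edgeR adjusted p = 1). The interval takes in levels from 55.6% to 128% of the control, so changes within it were not resolved with these libraries.

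PADI2 also did not pass the test, and its interval reaches further below the control level than that of PADI1. PADI2 (ENSG00000117115, 17066761 to 17119435) is the only member on the minus strand. PADI2 was at 2.30, 3.33 and 2.30 CPM in knockdown replicates 1 to 3, against 4.31, 4.79 and 2.36 CPM in control replicates 1 to 3. Control replicate 3 fell among the knockdown libraries, so the groups overlapped. The means were 2.64 ± 0.595 CPM in the knockdown and 3.82 ± 1.29 CPM in controls (SD, n = 3 each; log2 fold change -0.53, 95% interval -1.18 to 0.11, edgeR adjusted p = 0.416). The interval runs from 44.2% to 108% of the control level.

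PADI4 and PADI6 had 0 counts in all 6 libraries. PADI4 (ENSG00000159339) lies from 17308195 to 17364004 and PADI6 (ENSG00000276747) from 17372196 to 17401699, both on the plus strand, and GENCODE tags PADI6 with a reference genome error. A count of 0 allows a level of up to 3 counts, which is between 0.0459 and 0.0482 CPM in the knockdown libraries and between 0.0457 and 0.0529 CPM in the controls, for counting error only. No fold change can be given for either gene. The partners of PADI6 in the subcortical maternal complex were mostly without counts too: NLRP5, OOEP, KHDC3L, NLRP2 and NLRP7 had no counts, and TLE6 and ZBED3 were the 2 of 7 tested. Of these 2, 0 were called by edgeR, DESeq2 or limma-voom and 0 had an unadjusted p under 0.05 (median log2 fold change -0.05). Of all genes tested, edgeR called 0.655% and 15.6% had an unadjusted p under 0.05. TLE6 averaged 2.78 ± 0.451 CPM in the knockdown and 2.97 ± 0.831 CPM in controls, and ZBED3 46.5 ± 6.60 and 46.8 ± 4.75 CPM (SD, n = 3 each).

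**Figure D1:**
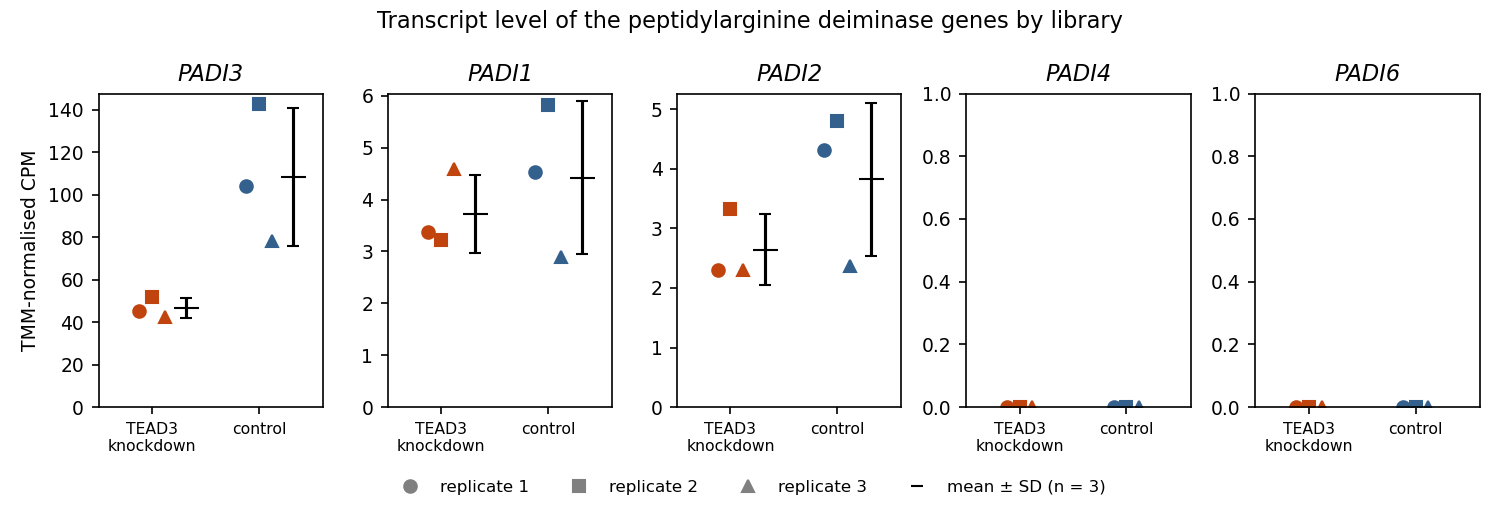
Levels of the 5 deiminase genes in TMM-normalised CPM (each vertical axis on its own scale from 0) in the 3 TEAD3 knockdown and 3 control libraries, with the mean and SD. PADI3 lies between 42.5 and 51.6 CPM in the knockdown and between 78.1 and 143 CPM in the controls, the groups of PADI1 and PADI2 overlap, and PADI4 and PADI6 are at 0.

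Per length of transcript the order of the levels was PADI3, then PADI1, then PADI2. PADI3 was at 14.6 ± 1.47 CPM per kb of its longest annotated transcript in the knockdown and at 33.9 ± 10.2 in controls (SD, n = 3 each), and in controls it stood above 88.8% of the 16327 protein-coding genes with a count. PADI1 was at 0.969 ± 0.196 CPM per kb in the knockdown and 1.15 ± 0.383 in controls, and PADI2 at 0.607 ± 0.137 and 0.880 ± 0.296. PADI1 exceeded PADI2 in each of the 6 libraries, by 1.09 to 2.26 times, and the difference between their means was larger than either SD in the knockdown but within the SD in controls. PADI3 held between 88.6% and 91.0% of the summed per-length level of the family in the knockdown and between 93.8% and 95.0% in controls.

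The ratio of PADI3 to its neighbours does not depend on the scaling of a library. Per length, PADI3 over PADI1 was 16.2, 19.4 and 11.2 in knockdown replicates 1 to 3, against 27.7, 29.5 and 32.5 in control replicates 1 to 3. PADI3 over PADI2 was 26.9, 21.1 and 25.2 in the knockdown libraries, against 32.9, 40.5 and 45.01 in the controls. Both ratios were lower in every knockdown library than in every control. The ratio of PADI1 to PADI2 overlapped between groups, at 1.66, 1.09 and 2.26 in the knockdown and 1.19, 1.38 and 1.38 in the controls. No test was made of the first 2 ratios, because they hold the PADI3 values that chose the cluster.

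**Figure D2:**
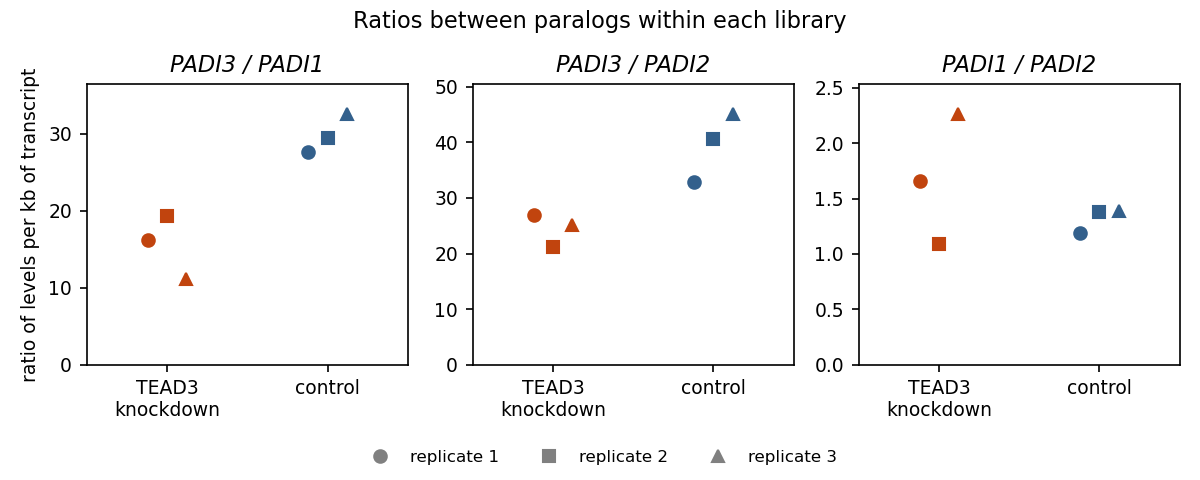
Ratios of levels per kb of transcript within each library (vertical axes from 0), for the 3 TEAD3 knockdown and 3 control libraries. PADI3 over PADI1 and PADI3 over PADI2 separate the groups, with the highest knockdown ratios at 19.4 and 26.9 and the lowest control ratios at 27.7 and 32.9, while PADI1 over PADI2 overlaps.

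The 3 expressed members varied more between control libraries than most genes of like level. The coefficient of variation of PADI3 over the controls was 29.9%, above 99% of 4064 genes with a mean level within 2-fold of it, whose median was 10.2%. In the knockdown it was 10.1%, above 76.2% of the same genes. For PADI1 the value was 20.2% in the knockdown and 33.3% in controls, and for PADI2 22.5% and 33.7%. In all 3 genes control replicate 2 was the highest control and control replicate 3 the lowest, and the highest control exceeded the lowest 1.82 times for PADI3, 2.01 times for PADI1 and 2.03 times for PADI2. The control libraries also differed in base composition: the deviations of 12150 protein-coding genes from their means had a Spearman correlation with GC content, across genes that are not independent, of 0.641 in control replicate 2, -0.522 in control replicate 1 and -0.208 in control replicate 3. In the knockdown it lay between -0.127 and 0.169. The longest transcripts of PADI1, PADI2 and PADI3 are 56.1%, 54.2% and 56.0% GC, where the median gene has 47.9%.

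With a correction for transcript length and GC content in each library, PADI3 was at 47.0, 51.2 and 42.8 CPM in knockdown replicates 1 to 3, against 110, 127 and 79.6 CPM in control replicates 1 to 3. The coefficient of variation over the controls was then 22.9% and the log2 fold change -1.17. RNAs without a poly(A) tail also moved between libraries: the summed level of RN7SL1, RN7SL2, RN7SK, RPPH1 and RMRP was 117, 36.2 and 161 CPM in knockdown replicates 1 to 3, against 32.7, 78.5 and 36.1 CPM in control replicates 1 to 3. None of these 5 was called by edgeR or DESeq2, with 3 higher at an unadjusted p under 0.05 (RN7SL1, RPPH1 and RN7SL2) and a median log2 fold change of 1.06. Of all 17723 genes tested, 2761 (15.6%) had an unadjusted p under 0.05, and edgeR called 0.655%. With the mean log2 level of these 5 RNAs as a covariate, in place of their sum, the log2 fold change of PADI3 was -1.27. The part of these RNAs in the PADI3 values was not tested further.

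**Figure D3:**
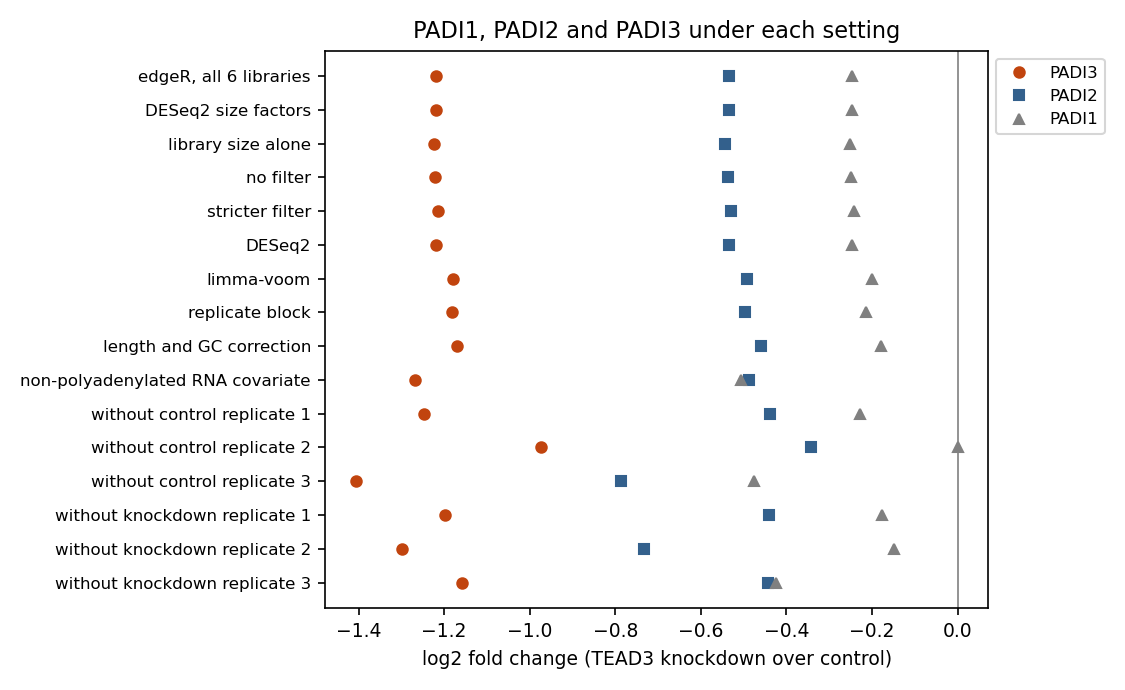
Log2 fold change of PADI3, PADI2 and PADI1 (horizontal axis, knockdown over control) under edgeR with all 6 libraries and under each of 15 alternative settings (rows). PADI3 lies between -1.41 and -0.97, PADI2 between -0.79 and -0.34, and PADI1 between -0.51 and -0.00013.

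No gene around the cluster was called by the 3 tools run. The cluster spans 335 kb, and 37 other annotated genes reach within 500 kb of it, of which 15 had no counts and 14 were tested. edgeR, DESeq2 and limma-voom each called 0 of them. Over all genes tested edgeR called 0.655%, and DESeq2 called 2.69% of its genes lower and 3.42% higher. So 14 genes are too few to read anything from the absence of calls. At an unadjusted p under 0.05, edgeR had 1 higher, the pseudogene MST1P2, whose adjusted p was 0.320, where 15.6% of all genes tested were under that p. The median log2 fold change of the 14 was 0.13, where that of all genes tested was -0.0012. The neighbours on the PADI2 side were SDHB, an iron-sulfur subunit of succinate dehydrogenase, and ATP13A2, a lysosomal polyamine transporter. SDHB was at 132, 136 and 131 CPM in knockdown replicates 1 to 3, against 131, 119 and 135 CPM in control replicates 1 to 3. Its log2 fold change was 0.05 (SE 0.093, edgeR adjusted p = 0.846), and that of ATP13A2 was 0.03 (SE 0.155, edgeR adjusted p = 0.958).

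The neighbours on the PADI6 side were RCC2, a regulator of chromosome condensation and cell spreading, and ARHGEF10L, a guanine nucleotide exchange factor. RCC2 was at 139, 120 and 135 CPM in knockdown replicates 1 to 3, against 120, 161 and 132 CPM in control replicates 1 to 3. The groups overlapped, with a log2 fold change of -0.07 (SE 0.122, edgeR adjusted p = 0.861). ARHGEF10L averaged 33.8 ± 4.26 CPM in the knockdown and 29.3 ± 3.86 CPM in controls (SD, n = 3 each; log2 fold change 0.21, edgeR adjusted p = 0.508). Exons of ATP13A2 and RCC2 overlap a gene on the opposite strand that had no counts. LINC02783, a non-coding gene between PADI2 and PADI1, averaged 0.530 ± 0.167 CPM in the knockdown and 0.756 ± 0.115 CPM in controls (log2 fold change -0.51, edgeR adjusted p = 0.642).

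MIR3972 lies in an intron of PADI3, from 17277889 to 17277975 on the same strand. Its mature sequence in RefSeq, with the seed (bases 2 to 8) in capitals, is shown because it shares the transcription unit.
hsa-miR-3972: cUGCCAGCcccguuccagggca
The row of this hairpin held 0 counts in each knockdown library and 3, 2 and 1 counts in control replicates 1 to 3. These counts are at or under the floor of 3, and libraries of polyadenylated RNA do not measure mature miRNAs, so no fold change is given.

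**Figure D4:**
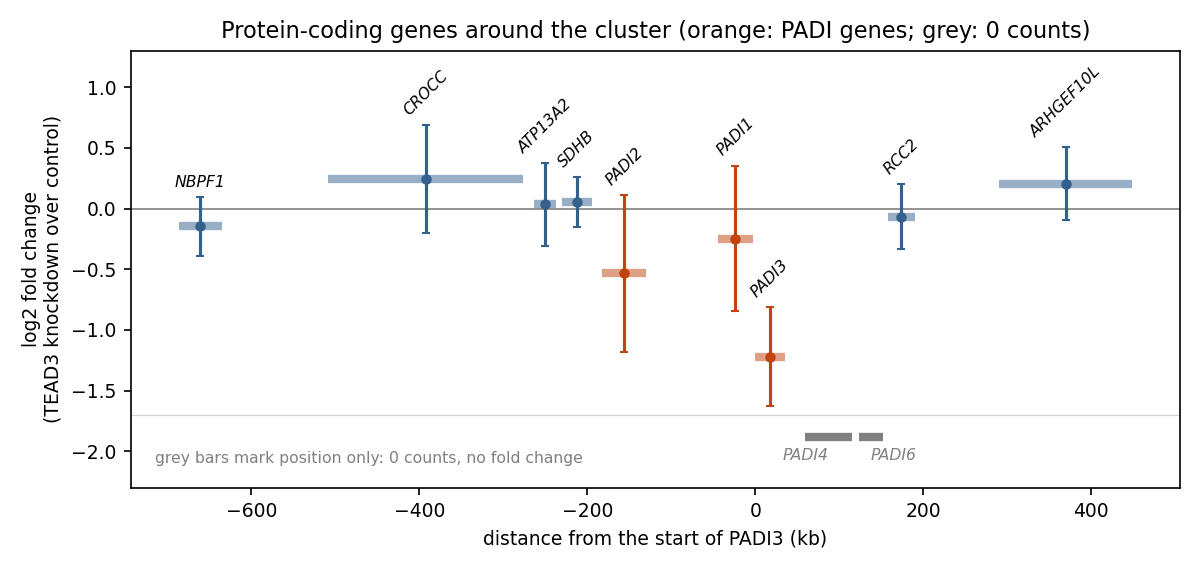
Log2 fold change (knockdown over control, vertical axis) with its 95% interval for the tested protein-coding genes within 500 kb of the cluster, placed by distance in kb from the start of PADI3, with bars for the extent of each gene. PADI3 stands at -1.22, the 6 tested neighbours lie between -0.15 (NBPF1) and 0.24 (CROCC), and PADI4 and PADI6 are drawn at their position without a value.

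No known substrate of the deiminases was called by edgeR with the default filter on low counts. Of 29 listed, 23 were tested, edgeR called 0 (unadjusted p under 0.05 for 5 higher and 2 lower, where 15.6% of all genes tested were under it), DESeq2 called 3 higher and limma-voom 0, and the median log2 fold change was 0.08. Over all genes tested edgeR called 0.655%, and DESeq2 called 3.42% of its genes higher and 2.69% lower. So 23 genes are too few to read anything from the absence of edgeR calls. S100A3 and trichohyalin, the hair follicle substrates tied to PADI3 and singled out here after their values were seen, differed by less than the spread. S100A3 was at 13.8, 7.84 and 11.2 CPM in knockdown replicates 1 to 3, against 8.14, 11.9 and 8.49 CPM in control replicates 1 to 3 (log2 fold change 0.20, edgeR adjusted p = 0.725). TCHH, which encodes trichohyalin, averaged 0.264 ± 0.128 CPM in the knockdown and 0.250 ± 0.0903 CPM in controls (SD, n = 3 each; log2 fold change 0.08, edgeR adjusted p = 0.978). For each of these genes the groups overlapped.

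The substrates with the smallest p were CXCL8, KRT10 and GFAP. CXCL8, a neutrophil chemokine, was at 24.9, 29.01 and 30.8 CPM in knockdown replicates 1 to 3, against 19.4, 17.5 and 19.6 CPM in control replicates 1 to 3. All knockdown libraries lay above the controls, as for 11% of all genes tested, with a log2 fold change of 0.59 (SE 0.124, edgeR adjusted p = 0.0668). KRT10, a keratin of the upper epidermis, averaged 13.4 ± 3.44 CPM in the knockdown and 7.79 ± 1.57 CPM in controls (0.78, SE 0.215, edgeR adjusted p = 0.127), and its exons overlap a gene on the opposite strand. That gene, KRT10-AS1, averaged 13.7 CPM in the knockdown and 8.46 CPM in controls (0.70, edgeR adjusted p = 0.0598). Where reads are shared the 2 genes cannot be told apart. GFAP had a log2 fold change of -1.34 (SE 0.387, edgeR adjusted p = 0.143) at the low levels given above. DESeq2 called CXCL8, KRT10 and RPS2, at adjusted p of 0.00139, 0.0107 and 0.0458, and edgeR called CXCL8 with the stricter filter on low counts (adjusted p = 0.0472). VIM, an intermediate filament substrate of PADI2 picked out after its values were seen, was at 3648, 3955 and 3433 CPM in the knockdown, against 4334, 4276 and 4842 CPM in controls (-0.29, SE 0.0976, edgeR adjusted p = 0.20). Exons of GFAP, VIM and RPS2 overlap other annotated genes, so their counts are uncertain where reads are shared.

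Most of the genes listed here as working beside PADI3 in hair follicle and cornified envelope lacked counts. Of 30 listed, 17 had no counts, among them TGM3, the transglutaminase that crosslinks citrullinated trichohyalin, and the inner root sheath keratin genes KRT25, KRT27 and KRT71. edgeR, DESeq2 and limma-voom each called 0 of the 8 tested, and 0 had an unadjusted p under 0.05 (median log2 fold change -0.02). Of all genes tested, edgeR called 0.655% and 15.6% had an unadjusted p under 0.05. So 8 genes are too few to read anything from the absence of calls. KRT75, a keratin of the hair companion layer, averaged 0.627 ± 0.257 CPM in the knockdown and 1.13 ± 0.397 CPM in controls (log2 fold change -0.85, edgeR adjusted p = 0.387). PPL, which encodes periplakin of the cornified envelope, averaged 1.41 ± 0.467 and 2.17 ± 0.536 CPM (-0.62, edgeR adjusted p = 0.388), and FLG, which encodes filaggrin, 4.54 ± 0.0892 and 5.65 ± 1.00 CPM (-0.32, edgeR adjusted p = 0.474; SD, n = 3 each). Exons of KRT75 and FLG overlap genes on the opposite strand. PADI3 had at least 2775 counts in every library. The list left out other keratin genes, so its tally does not cover all keratins of hair. KRT81 and KRT15, among those left out and named after their values were seen, were expressed and called by edgeR in opposite directions. KRT81 averaged 70.7 CPM in the knockdown and 30.9 CPM in controls (log2 fold change 1.19, edgeR adjusted p = 0.000922). KRT15 averaged 86.2 and 156 CPM (-0.85, edgeR adjusted p = 0.0137).

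Enzymes that act on the same residue or on free citrulline were not called by edgeR, DESeq2 or limma-voom. Of 9 protein arginine methyltransferases, whose methylated arginines compete with citrullination, 8 were tested and edgeR called 0 (0 at an unadjusted p under 0.05, against 15.6% of all genes tested; median log2 fold change 0.04). PRMT9, PRMT1 and PRMT5 had the smallest p, with log2 fold changes of 0.24, 0.11 and 0.11 (edgeR adjusted p of 0.493, 0.634 and 0.659). Of 10 enzymes of free citrulline and arginine, 5 were tested and edgeR called 0 (2 higher at an unadjusted p under 0.05, against 15.6% of all genes tested; median 0.27). Over all genes tested edgeR called 0.655%, so lists of 8 and 5 tested genes are too short to read anything from the absence of calls. ASL, argininosuccinate lyase, was at 66.6, 59.5 and 62.8 CPM in knockdown replicates 1 to 3, against 48.9, 57.4 and 50.0 CPM in control replicates 1 to 3 (log2 fold change 0.27, edgeR adjusted p = 0.251). ASS1, argininosuccinate synthase, which consumes citrulline, averaged 16.4 ± 2.44 CPM in the knockdown and 11.9 ± 2.58 CPM in controls (0.46, edgeR adjusted p = 0.259). ARG2, the mitochondrial arginase, averaged 7.32 ± 1.09 CPM in the knockdown and 5.54 ± 0.731 CPM in controls (0.40, edgeR adjusted p = 0.345). Exons of PRMT1, PRMT5, ASL and ARG2 overlap other annotated genes.

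Deiminases depend on calcium, and 16 genes of calcium entry and stores were all tested. edgeR called 0 (3 lower at an unadjusted p under 0.05, against 15.6% of all genes tested in either direction), DESeq2 called 2 lower and limma-voom 0, with a median log2 fold change of -0.10. Over all genes tested edgeR called 0.655%, and DESeq2 called 2.69% of its genes lower and 3.42% higher. ATP2B4, a plasma membrane calcium pump, was at 64.1, 78.7 and 70.7 CPM in knockdown replicates 1 to 3, against 97.6, 87.2 and 98.6 CPM in control replicates 1 to 3. The groups did not overlap, as for 21.6% of all genes tested (log2 fold change -0.41, SE 0.108, edgeR adjusted p = 0.118). ATP2B4 was called by edgeR once control replicate 2 was left out (-0.47, adjusted p = 0.042) or length and GC were corrected for (-0.32, adjusted p = 0.0426). ATP2A2, the SERCA2 calcium pump of the endoplasmic reticulum, averaged 122 ± 6.84 CPM in the knockdown and 156 ± 15.3 CPM in controls (SD, n = 3 each; -0.36, edgeR adjusted p = 0.143). DESeq2 called both pumps, at adjusted p of 0.0145 and 0.0283, and for CALM3, a calmodulin gene, the log2 fold change was -0.23 (edgeR adjusted p = 0.311), with exons that overlap genes on the opposite strand.

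Transcription factors reported to act on deiminase promoters, namely Sp, NF-Y, AP-1, NF-kB, MZF1 and the oestrogen receptor, were not called by edgeR with all libraries. Of 16 listed, 15 were tested and edgeR called 0 (unadjusted p under 0.05 for 3 higher and 2 lower, against 15.6% of all genes tested, and 0 called by DESeq2 or limma-voom; median log2 fold change -0.04). Over all genes tested edgeR called 0.655%, so 15 genes are too few to read anything from the absence of calls. SP1 was at 76.1, 87.0 and 84.4 CPM in knockdown replicates 1 to 3, against 101, 96.1 and 101 CPM in control replicates 1 to 3 (-0.27, SE 0.096, edgeR adjusted p = 0.216). Its knockdown libraries were all below every control, as for 10.6% of all genes tested. FOS averaged 1.43 ± 0.180 CPM in the knockdown and 0.734 ± 0.262 CPM in controls (0.96, edgeR adjusted p = 0.249), and JUNB 97.1 ± 5.54 and 76.5 ± 17.0 CPM (0.34, edgeR adjusted p = 0.277; SD, n = 3 each). Leaving out control replicate 2 made JUNB a call (0.54, edgeR adjusted p = 0.0257), and its exons overlap HOOK2 on the opposite strand.

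**Figure D5:**
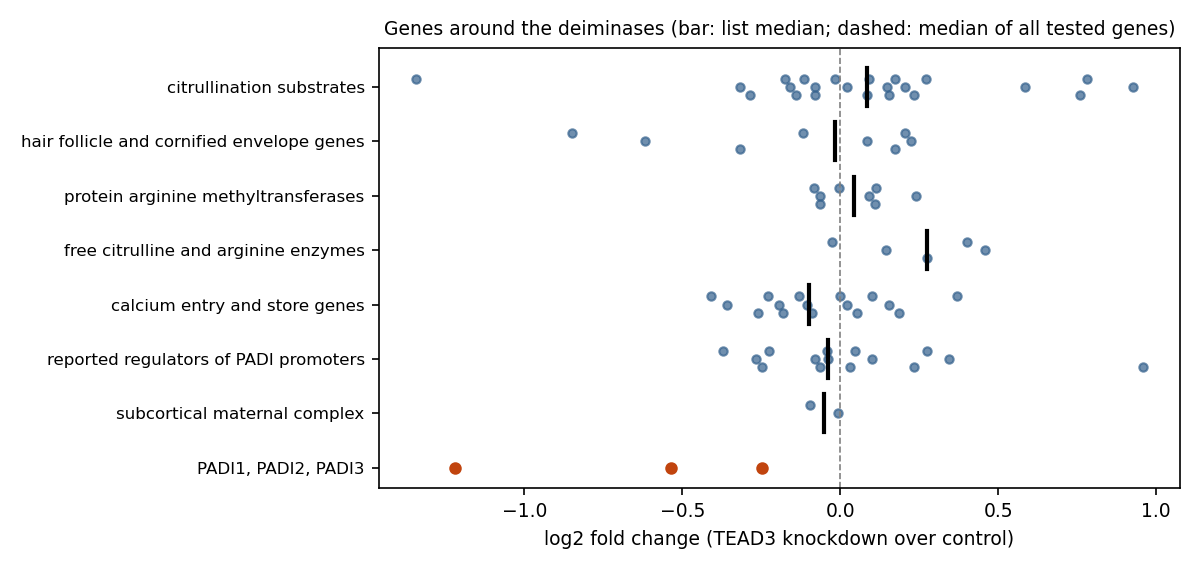
Log2 fold changes (knockdown over control, horizontal axis) of the tested genes of 7 lists around the deiminases, 1 point per gene and a bar at each list's median, with the 3 tested deiminases in the lowest row. The list medians lie between -0.10 and 0.27, beside a median of -0.0012 over all genes tested, and single genes spread further, down to GFAP at -1.34 among the substrates.

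The genes whose log2 CPM followed that of PADI3 most closely over the 6 libraries were PLCD4, HIF1AN, TAP2, BTN2A2 and CLDN4, with Pearson r of 0.997, 0.992, 0.991, 0.990 and 0.990. They were ranked among 12149 protein-coding genes, and the coefficients are descriptions over 6 points that share the split between groups. PLCD4, a phospholipase C, was at 12.7, 12.9 and 11.9 CPM in knockdown replicates 1 to 3, against 17.4, 19.8 and 15.2 CPM in control replicates 1 to 3, with the same order of libraries within the controls as PADI3 (log2 fold change -0.48, edgeR adjusted p = 0.145). CLDN4, a tight junction claudin, was at 7.09, 7.10 and 6.37 CPM in the knockdown, against 10.99, 15.4 and 9.67 CPM in controls (-0.81, SE 0.191, edgeR adjusted p = 0.0903). For HIF1AN, the asparagine hydroxylase that restrains hypoxia-inducible factors, the log2 fold change was -0.41 (edgeR adjusted p = 0.0995), for TAP2, a peptide transporter of antigen presentation, it was -0.19 (edgeR adjusted p = 0.349), and for BTN2A2, a butyrophilin, -0.17 (edgeR adjusted p = 0.444). Exons of PLCD4, HIF1AN and TAP2 overlap other annotated genes. By the same measure TEAD3 ranked 378 (r = 0.879), PADI2 711 (0.818) and PADI1 2630 (0.541).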

How the data were processed

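Polyadenylated RNA of U251 cells was sequenced as strand-marked paired reads, per the labels' protocols. The deposited values are whole-number gene counts that the authors had not normalized. GRCh38 is the build and StringTie 1.3.4d, HISAT2 2.0.4 and cutadapt 1.9 are among the programs listed, per the submitters' processing notes, beside edgeR and DESeq2. The counting program, its annotation, strand mode and treatment of multiply mapping reads were not given in the sources used here. Symbols were found for 58477 of 60612 identifiers, and coordinates come from GENCODE release 29.

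All computations started from the deposited counts, in R 4.3.3. Genes passing filterByExpr (minimum count 10) entered edgeR 4.0.16 (TMM scaling, quasi-likelihood test, a model of group alone). A gene was called at a Benjamini-Hochberg adjusted p under 0.05 over all genes tested. Alternatives were DESeq2 1.42.0, limma-voom (limma 3.58.1), other scalings and filters, a block for replicate number, omission of single libraries, a per-library loess correction for length and GC content (span 0.3, 12150 genes) and a covariate for RNAs without a poly(A) tail. The procedure was tested on simulated data. Named are the 5 members, TEAD3, the flanking coding genes, of each list up to 3 genes with the smallest p where none was called, and the 5 genes most like PADI3. S100A3, TCHH, VIM, RPS2, LINC02783, MST1P2, NBPF1 and CROCC were named outside this rule, after their values were seen. So were KRT81, KRT15, KRT10-AS1 and the single cell type markers. The members and lists were chosen with earlier results of these data known. Sequence identities were computed with Biopython 1.88. Some sequence of the cluster is not reported here.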

Additional observations from a re-analysis of the deposited data

How the results depend on the processing

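The PADI3 log2 fold change kept its direction under all 15 alternatives and lay between -1.41 and -0.97 when a library was left out. The value of -0.97, a decrease of less than 2-fold, came without control replicate 2. PADI2 (-0.79 to -0.34) kept its direction, while PADI1 (-0.51 to -0.00013) showed no difference once control replicate 2 was left out. Neither was called under any alternative. TEAD3 was not called without the filter on low counts (-1.56) or with the covariate for RNAs without a poly(A) tail (-1.44), and lay between -1.80 and -1.37 when a library was left out. The count of called genes, 116, was 31 without the filter, 872 by DESeq2, 565 with the length and GC correction (257 higher and 308 lower, against 80 and 36), 25 with the covariate and 20 to 589 when a library was left out, the highest without control replicate 2. Of the substrates, 1 was called with the stricter filter (at least 1 CPM in 3 libraries) and 3 by DESeq2. Of the calcium genes, 2 were called by DESeq2, 1 with the length and GC correction and 0 to 1 when a library was left out, as for the promoter factors (0 to 1). The cause of these moves was not tested.

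The values showed no pairing by replicate number: deviations of same-numbered libraries had correlations of 0.00557, -0.0169 and 0.00828. Whether samples were handled in pairs cannot be settled by these correlations. With the replicate number as a block 63 genes were called, and the log2 fold change of PADI3 was -1.18. PADI1 and PADI2 had 142 to 331 counts a library, fewer than PADI3, so their relative counting error is larger. Their coefficients of variation over the controls were 33.3% and 33.7%, and the part of counting error in that spread was not tested.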
